A study of Neotoma lepida with 16 samples.

Results

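Oxidative phosphorylation in the liver was followed here through the nuclear genes of the respiratory chain and of ATP synthase. Members were the probes of the rat array whose gene name, with the suffix "_predicted" removed, began with Nduf, Uqcr, Atp5, Cox4, Cox5, Cox6, Cox7 or Cox8, or was Sdha, Sdhb, Sdhc, Sdhd or Cycs. The rule took 84 of 41012 probes and 72 of 35561 genes or transcripts, and it used names only and no measured value. By name they fall into 31 genes of complex I, 4 of complex II, 5 of complex III, cytochrome c, 14 of complex IV and 13 of complex V. A further 4 names begin in the same way without being subunits (Ndufaf1, Cox4nb, Cox7a2l and Atp5s), and they are given apart.

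The respiratory chain sits in the inner mitochondrial membrane. Complex I takes electrons from NADH and complex II from succinate, both pass them to ubiquinone, complex III hands them to cytochrome c, and complex IV, cytochrome c oxidase, gives them to oxygen. Complexes I, III and IV pump protons, and complex V, ATP synthase, uses the returning protons to make ATP. Most subunits are coded in the nucleus. A core of those of complexes I, III, IV and V is coded in mitochondrial DNA, so these complexes need both genomes. Hepatocytes are rich in mitochondria, and heart and muscle use their own isoforms of some complex IV subunits.

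The animals were wild-caught desert woodrats (Neotoma lepida) of 2 populations, Mojave and Great Basin, fed creosote bush or juniper. All were kept on rabbit chow in captivity for 3 months and then received rising amounts of the plant in the chow over 5 days. The groups were Mojave woodrats on creosote (4 males), Mojave woodrats on juniper, Great Basin woodrats on creosote and Great Basin woodrats on juniper (2 males and 2 females each). Each of the 16 arrays compared the liver RNA of 1 animal (red dye) with a pool of all 16 livers (green dye). With no dye swap, a value of 0 need not be the level of the pool. Atp5o, for example, was above 0 in all 16 animals (0.12 to 1.03). Values are therefore compared between animals only. The ages of the animals are not given in the labels. No group stayed on chow alone, so "higher" and "lower" describe creosote relative to juniper, and which plant moved a gene cannot be told.

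Of the 72 genes, 64 could be tested. The scanner software marks spots that stand clear of background in the red channel; a probe needed that mark on 4 or more of the 16 arrays, and the brightest such probe stood for its gene. Ndufa1, Ndufa7, Ndufb9, Ndufs5b, Ndufv3l and Cox6b2 were too dim for this. Atp5b, the catalytic beta subunit of ATP synthase, and the complex I core subunit Ndufs3 lost 11 and 8 of 16 spots to the scanner software's outlier marks. This left values on 5 and 8 arrays. With those spots kept, their mean creosote minus juniper differences were -0.02 and 0.03 on the log2 scale (limma adjusted p = 0.904 and 0.833). Among the tested members, 49 were well above background on all 16 arrays and none was saturated. Ndufa12, Sdhd, Cox6c1 and Cox4nb were below that mark on every array of 1 group, so no fold is given for them. The probe named Cox6b carries a description of uroplakin Ia in the same file, so its identity is uncertain. The probes are of rat sequence and were read with woodrat RNA, so a level is compared between animals for 1 probe and never between probes.

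The share of probes well above background ranged from 45.6% to 75.9% over the arrays. It was lowest on slide 1 (mean 48.5%, against 65.6%, 70.0% and 71.3% on the other slides), and each slide held 1 animal of each group. Creosote animals lay at positions 1 and 2 of every slide and juniper animals at positions 3 and 4, with Great Basin animals at the outer and Mojave animals at the inner positions. Position on the slide and group cannot be told apart.

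Across both populations, 15 of the 64 members differed between the diets (limma, adjusted p under 0.05 over all genes tested), which is 23.4% of them beside 12.1% of all 26496 genes tested. Calls were more frequent among bright probes, and within classes of like brightness the members' share was near that of all genes. It ran from 5.56% beside 3.41% in the dimmest class to 33.3% beside 37.4% in the brightest. The difference is creosote minus juniper on the log2 scale, the mean of the 2 populations, with sex as a term of the model; p-values measure the spread between these animals. On creosote, 12 of the 15 were higher and 3 lower (over all genes 5.73% were higher and 6.39% lower), a split that depended on the normalization. After centring each array on its median in place of loess, 10 of 64 members passed, beside 14.6% of all genes. Of the 10, 4 were higher and 6 lower, and 6 were shared with the 15. Ndufb7 and Cox8a were then at 0.25 and 0.20 (adjusted p = 0.120 and 0.138). In males alone 2 of 64 passed (Ndufa6 and Sdhb), beside 4.73% of all genes. Without the dim slide 1 there were 8, beside 7.97%. The changed members were spread over all 5 complexes, and most subunits of each complex did not pass. Complex I had 5 higher (among them Ndufb5, Ndufb7, Ndufa11 and Ndufab1) and 2 lower (Ndufa6 and Ndufa8) of 25, complex II 1 higher of 4 (Sdhb), complex III 1 higher of 5 (Uqcrfs1), complex IV 2 higher of 13 (Cox5b and Cox8a) and complex V 2 higher of 12 (Atp5o and Atp5c1). Ndufaf1 was higher and Atp5s lower among the names that are not subunits. The median difference of the 64 members was 0.02 on the log2 scale, beside -0.01 for all genes tested, and over the alternative scalings it was -0.02 after median centring, 0.08 with no offset and 0.10 in the animal (Cy5) channel alone (all genes -0.02, -0.01 and 0.0029). In whole liver, fewer cells of a type and less RNA per cell cannot be told apart. Markers of hepatocytes were also higher on creosote: 9 of 13 tested passed, none lower, with a median difference of 0.61. After median centring 9 were higher and 1 lower (median 0.43), and in the Cy5 channel alone 6 were higher (median 0.27). Their median log2 ratio per animal was 0.40 to 0.73 in Mojave creosote, -0.05 to 0.21 in Mojave juniper, 0.57 to 0.69 in Great Basin creosote and -0.05 to 0.18 in Great Basin juniper. Of the other markers, 3 of 10 of stellate cells and fibroblasts were higher on creosote (Rgs5, Pdgfrb and Timp1), 1 of 8 of endothelium was higher (Xlkd1), 1 of 10 of Kupffer cells was lower (Cd14), and 1 of 8 of pancreas and intestine was lower (Fabp2). Fabp2 lost its call on leaving out any 1 of 12 animals (highest adjusted p = 0.127), and Pdgfrb without any 1 of 3 (0.0662). The 3 of cholangiocytes, 5 of lymphocytes, 4 of erythroid cells and 4 of adipocytes gave 0 calls (limma; 0 at an unadjusted p under 0.05). The part of these cells in the members' differences was not tested.

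**Figure D1:**
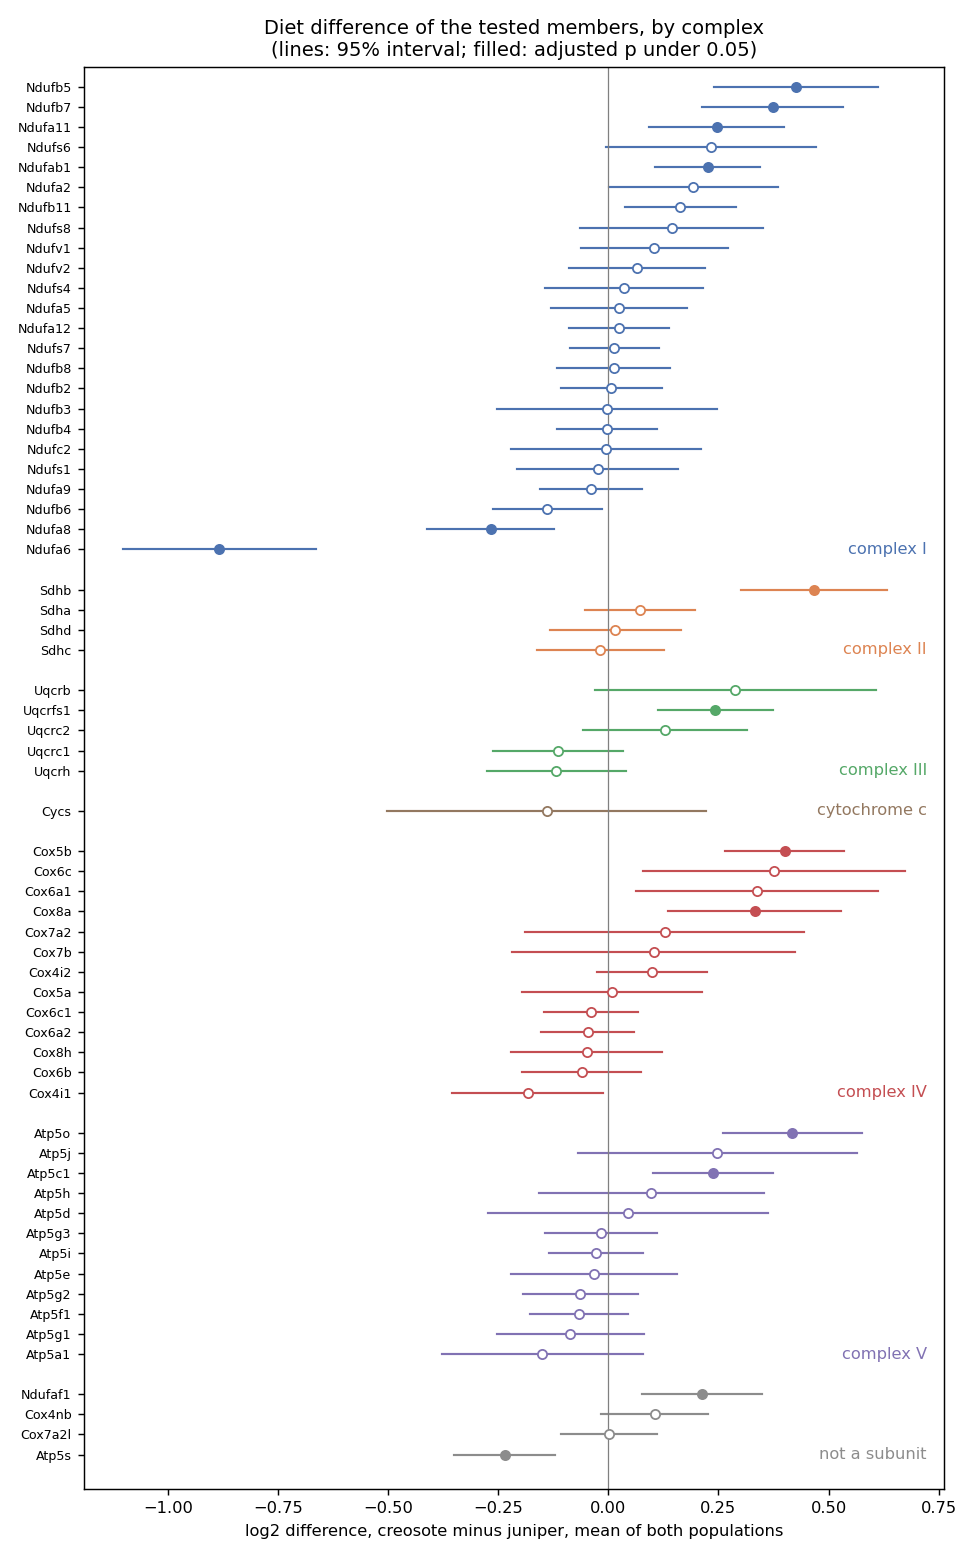
Creosote minus juniper difference, mean of the 2 populations, of the tested members reported here on the log2 scale, ordered within each complex, with 95% intervals from the model and filled points for adjusted p under 0.05. Ndufa6 lies far to the left at -0.88, and the filled points on the right reach 0.47 (Sdhb), while most members lie near 0. After median centring 4 members passed as higher and 6 as lower, in place of 12 and 3. Of all genes 14.6% then passed, in place of 12.1%.

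Ndufa6 had the largest difference of any member. It codes for an accessory subunit of complex I that carries the mitochondrial acyl carrier protein on the matrix arm. The log2 ratios to the pool were -0.40, 0.11, -0.74 and -0.58 in Mojave creosote, 0.42, 0.38, 0.23 and 0.10 in Mojave juniper, -1.06, -1.24, -0.98 and -1.05 in Great Basin creosote and -0.07, -0.07, -0.07 and 0.10 in Great Basin juniper. All 4 Great Basin animals on creosote lay below every other animal, and among Mojave animals 1 creosote animal reached the juniper range. The difference was -0.88 ± 0.10 (SE), that is, 1.84-fold lower on creosote (limma adjusted p = 5.14e-05), and within each slide it was lower in 8 of 8 pairs (-1.17 to -0.27). This call held under all 30 alternatives, with values between -1.08 and -0.77.

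Ndufab1 is the acyl carrier protein that Ndufa6 binds and that also serves mitochondrial fatty acid synthesis. Its log2 ratios were 0.10, 0.34, 0.04 and 0.27 in Mojave creosote, -0.07, 0.09, -0.09 and -0.08 in Mojave juniper, 0.47, 0.34, 0.42 and 0.34 in Great Basin creosote and 0.15, 0.23, 0.06 and 0.19 in Great Basin juniper. It was higher on creosote by 0.23 ± 0.06 (limma adjusted p = 0.0149), with overlap among Mojave animals and none among Great Basin animals, and the difference was 0.06 after median centring (adjusted p = 0.652). Ndufa8, an accessory subunit on the intermembrane side, was lower: its log2 ratios were -0.42, -0.23, -0.50 and -0.18 in Mojave creosote, 0.03, 0.01, 0.01 and 0.05 in Mojave juniper, -0.60, -0.19, -0.28 and -0.12 in Great Basin creosote and -0.0016, 0.02, -0.09 and -0.17 in Great Basin juniper. All 4 Mojave creosote animals lay below the Mojave juniper animals, and the Great Basin groups overlapped. The difference of -0.27 ± 0.07 (limma adjusted p = 0.0172) was -0.05 in the animal channel read without the pool (adjusted p = 0.791), its smallest value under any alternative.

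Of the membrane arm, Ndufb5 and Ndufb7 were higher on creosote. For Ndufb5 the log2 ratios were 0.64, 0.20, 0.12 and -0.03 in Mojave creosote, -0.11, -0.39, -0.12 and -0.17 in Mojave juniper, 0.38, 0.18, 0.53 and 0.29 in Great Basin creosote and 0.07, -0.04, 0.02 and -0.15 in Great Basin juniper. The groups did not overlap within either population, and the difference was 0.43 ± 0.09 (1.34-fold, limma adjusted p = 0.00431). Ndufb7 had log2 ratios of 0.48, 0.49, 0.58 and 0.47 in Mojave creosote, -0.32, 0.05, 0.09 and -0.32 in Mojave juniper, 0.20, 0.27, 0.41 and 0.40 in Great Basin creosote and 0.02, 0.22, 0.33 and 0.26 in Great Basin juniper. The Mojave groups were apart and the Great Basin groups overlapped, with a mean difference of 0.37 ± 0.08 (limma adjusted p = 0.00393). Ndufa11, a membrane subunit with a dim probe, differed by 0.25 ± 0.07 with the offset of 50 added to the signals (limma adjusted p = 0.0367), and by 0.70 with no offset (adjusted p = 0.0766) and 0.95 in the deposited ratios (adjusted p = 0.0645). Its call was lost on leaving out any of 10 of the 16 animals (highest adjusted p = 0.102), and it was kept without Mojave creosote 1 or 4, Mojave juniper 3 or 4, Great Basin creosote 2 or Great Basin juniper 4.

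Core subunits that did not pass were Ndufs1 at -0.02 (95% interval -0.21 to 0.16), Ndufv1, which binds NADH, at 0.10 (-0.06 to 0.27), Ndufv2 at 0.06, Ndufs7 at 0.01 and Ndufs8 at 0.14 (-0.06 to 0.35). The remaining accessory subunits of complex I lay between -0.14 (Ndufb6) and 0.23 (Ndufs6), and the closest to the threshold was Ndufb11 (0.16 ± 0.06, limma adjusted p = 0.0931).

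**Figure D2:**
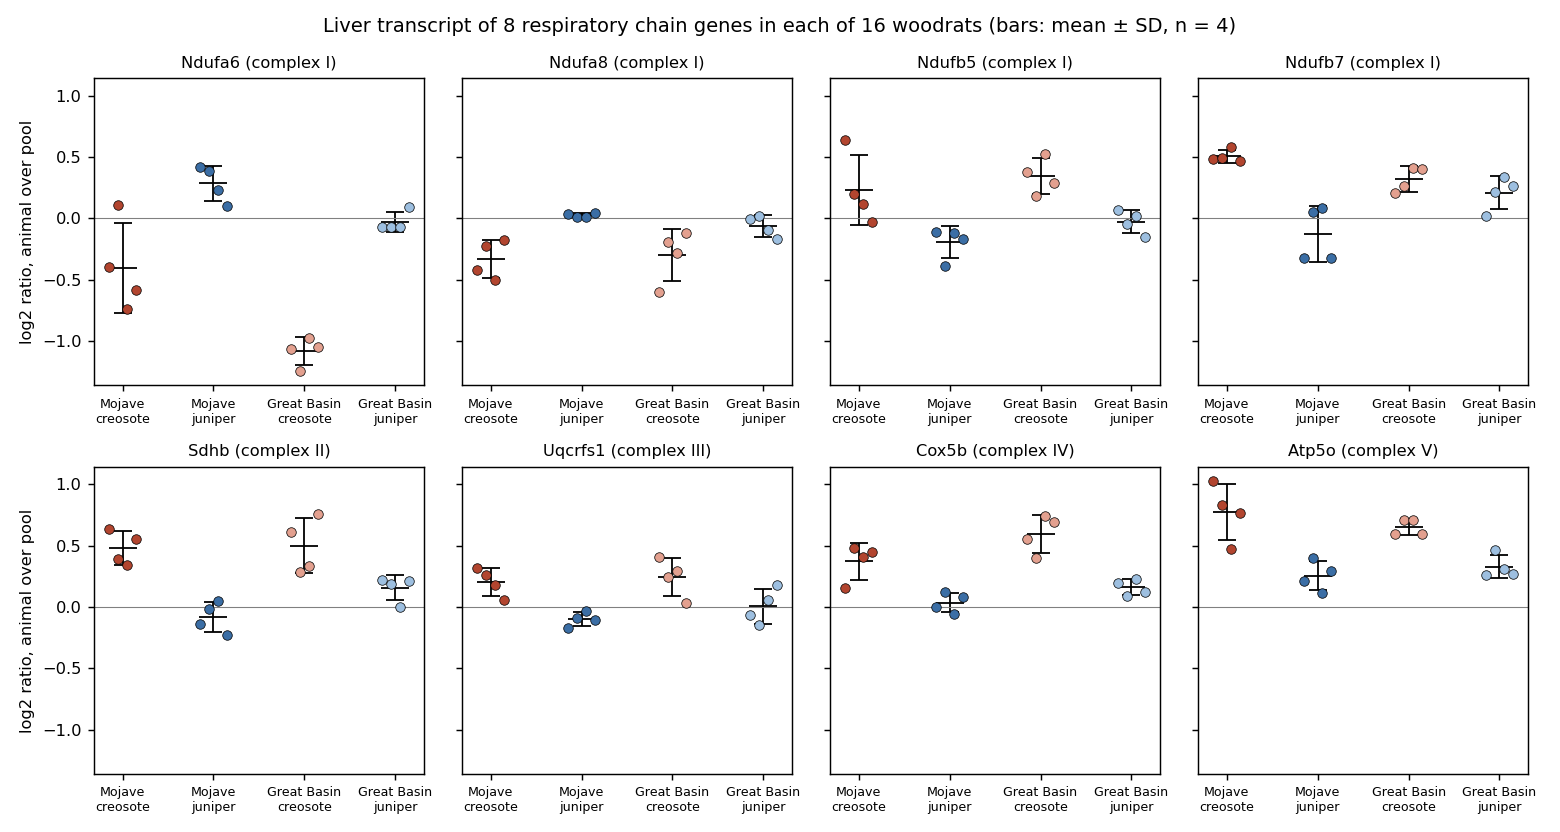
Log2 ratio of each animal over the pool for 8 members in the 4 groups, with the mean and SD of each group (n = 4). For Sdhb and Atp5o all 8 creosote animals lie above all 8 juniper animals, and for Ndufa6 the 4 Great Basin creosote animals lie between -1.24 and -0.98; after median centring the Mojave differences of Cox5b (-0.10) and Atp5o (0.05) were near 0.

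Complex II, succinate dehydrogenase, links the chain to the tricarboxylic acid cycle. Its iron-sulphur subunit Sdhb had log2 ratios of 0.64, 0.39, 0.34 and 0.55 in Mojave creosote, -0.14, -0.02, 0.05 and -0.22 in Mojave juniper, 0.61, 0.29, 0.34 and 0.76 in Great Basin creosote and 0.22, 0.19, 0.0034 and 0.21 in Great Basin juniper. All 8 creosote animals lay above all 8 juniper animals, and within slides creosote was higher in 8 of 8 pairs (0.10 to 0.77). Its difference of 0.47 ± 0.08 (1.38-fold, limma adjusted p = 0.000982) passed under all 30 alternatives, with values between 0.33 and 0.52 and a highest adjusted p of 0.0375. The flavoprotein Sdha (0.07, 95% interval -0.05 to 0.20) and the membrane anchors Sdhc (-0.02, -0.16 to 0.13) and Sdhd did not pass. Their probes were dim, well above background on 11, 9 and 6 arrays, none of the 6 in Mojave creosote, and the offset of 50 added to the signals draws differences of dim probes towards 0.

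In complex III the Rieske iron-sulphur protein Uqcrfs1 was higher on creosote. It had log2 ratios of 0.32, 0.26, 0.18 and 0.05 in Mojave creosote, -0.17, -0.09, -0.03 and -0.10 in Mojave juniper, 0.41, 0.24, 0.29 and 0.03 in Great Basin creosote and -0.06, -0.15, 0.06 and 0.18 in Great Basin juniper. The Mojave groups did not overlap, while 1 Great Basin creosote animal (0.03) lay within the juniper range, and the difference was 0.24 ± 0.06 (limma adjusted p = 0.0172). Leaving out Mojave juniper 1 ended the call (adjusted p = 0.0557), and after median centring the value was 0.09 (adjusted p = 0.582). Neither core protein passed, Uqcrc2 at 0.13 (95% interval -0.06 to 0.32) and Uqcrc1 at -0.12 (-0.26 to 0.03), nor did the hinge protein Uqcrh at -0.12 and Uqcrb at 0.29 (-0.03 to 0.61). Cytochrome c itself, Cycs, varied widely among animals, with log2 ratios of 0.70, -0.13, -0.59 and -0.45 in Mojave creosote, 0.14, -0.07, 0.27 and -0.07 in Mojave juniper, -0.19, -0.24, 0.14 and -0.47 in Great Basin creosote and -0.32, -0.41, -0.15 and 0.30 in Great Basin juniper. All 4 groups overlapped, and its interval ran from -0.50 to 0.22 around -0.14.

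Complex IV had 2 members past the threshold. Cox5b, a zinc-binding subunit on the matrix side, had log2 ratios of 0.15, 0.48, 0.41 and 0.45 in Mojave creosote, 0.0007, 0.12, -0.05 and 0.08 in Mojave juniper, 0.56, 0.40, 0.74 and 0.69 in Great Basin creosote and 0.20, 0.09, 0.23 and 0.12 in Great Basin juniper. The diets did not overlap within either population, and the lowest Mojave creosote animal fell inside the range of Great Basin juniper. The mean difference was 0.40 ± 0.06 (1.32-fold, limma adjusted p = 0.000686), and after median centring it was 0.25 (adjusted p = 0.120). Cox8a, the isoform of liver and most tissues, had log2 ratios of 0.41, 0.81, 0.28 and 0.21 in Mojave creosote, -0.04, 0.01, -0.21 and -0.24 in Mojave juniper, 0.22, -0.03, 0.36 and 0.24 in Great Basin creosote and 0.10, -0.03, -0.05 and 0.26 in Great Basin juniper. Only the Mojave groups were apart, and the mean difference of 0.33 ± 0.09 (limma adjusted p = 0.028) lost its call on leaving out Great Basin creosote 3 or 4 or Great Basin juniper 3 (adjusted p = 0.0747, 0.0630 and 0.0787), and with the slide as a block (0.33, adjusted p = 0.0506).

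Heart and muscle isoforms of complex IV were also on the array. Cox6a2, of heart and muscle, differed by -0.05 (95% interval -0.15 to 0.06) and its liver counterpart Cox6a1 by 0.34 (0.06 to 0.61, limma adjusted p = 0.111), which passed on leaving out Great Basin creosote 2 or Mojave creosote 3 (adjusted p = 0.0403 and 0.0276). Cox8h, the heart isoform beside Cox8a, was at -0.05 (-0.22 to 0.12) and the liver isoform Cox7a2 at 0.13 (-0.19 to 0.44). Among 10 muscle markers tested, 1 passed, beside 12.1% of all genes (Tnnt1, 0.21, not without Great Basin juniper 4 or Mojave juniper 2). Tnnt1 was at 0.93 in the deposited ratios (adjusted p = 0.0640) and at 0.39 in the Cy5 channel alone (adjusted p = 0.0948). Cox5a, the brightest probe of the complex, was at 0.01 (-0.20 to 0.21). The other subunits ranged from -0.18 (Cox4i1, the ubiquitous form of subunit 4) to 0.38 (Cox6c, 95% interval 0.08 to 0.67, adjusted p = 0.102).

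In ATP synthase, Atp5o codes for the oligomycin sensitivity-conferring protein, which joins the peripheral stalk to the catalytic head. Its log2 ratios were 1.03, 0.83, 0.47 and 0.76 in Mojave creosote, 0.22, 0.40, 0.12 and 0.29 in Mojave juniper, 0.60, 0.71, 0.71 and 0.59 in Great Basin creosote and 0.26, 0.47, 0.31 and 0.27 in Great Basin juniper. All 8 creosote animals lay above all 8 juniper animals, narrowly so (lowest creosote animal 0.471, highest juniper animal 0.466), and the difference was 0.42 ± 0.07 (1.34-fold, limma adjusted p = 0.00158); after median centring it was 0.26 (adjusted p = 0.0983). Atp5c1, the gamma subunit that turns within the head, had log2 ratios of 0.43, -0.03, 0.18 and 0.25 in Mojave creosote, -0.06, -0.20, -0.11 and -0.07 in Mojave juniper, 0.06, 0.26, 0.10 and -0.0045 in Great Basin creosote and -0.03, -0.14, -0.09 and -0.03 in Great Basin juniper. Within each population the diets did not overlap, though the gaps were small, and the difference of 0.24 ± 0.06 (limma adjusted p = 0.0244) was not past the threshold without Great Basin juniper 3 or Mojave juniper 2 (adjusted p = 0.0589 and 0.0740) and was 0.08 after median centring (adjusted p = 0.671). The alpha subunit Atp5a1 was at -0.15 (95% interval -0.38 to 0.08). The 3 genes that code for the same c-ring protein, Atp5g1, Atp5g2 and Atp5g3, were at -0.09, -0.06 and -0.02, and a second, dimmer probe of Atp5g2 gave 0.23. Atp5j, coupling factor 6 of the peripheral stalk, was at 0.25 (-0.07 to 0.57), and the other subunits lay between -0.07 (Atp5f1) and 0.10 (Atp5h).

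Among the names that are not subunits, the complex I assembly factor Ndufaf1 was higher by 0.21 ± 0.06 (limma adjusted p = 0.0411). This call was lost on leaving out any of 12 of the 16 animals (highest adjusted p = 0.112). It was kept without Mojave creosote 3 or 4, Great Basin creosote 2 or Great Basin juniper 4. After median centring Ndufaf1 was at 0.05 (adjusted p = 0.693). The call was also lost with no offset, in the deposited ratios, in the Cy5 channel alone, with the replicate block, in males alone and without slide 1 (adjusted p = 0.0533 to 0.452). Atp5s, coupling factor B, was lower: its log2 ratios were -0.23, -0.33, -0.22 and -0.38 in Mojave creosote, 0.11, -0.06, -0.01 and 0.04 in Mojave juniper, -0.08, -0.10, 0.07 and -0.19 in Great Basin creosote and 0.04, 0.13, -0.03 and 0.20 in Great Basin juniper. The Mojave groups were far apart and the Great Basin groups overlapped, with a mean difference of -0.24 ± 0.05 (limma adjusted p = 0.00893) that was lower in 8 of 8 pairs within slides. Cox7a2l, named for its likeness to a complex IV subunit, was at 0.0014 (95% interval -0.11 to 0.11), and Cox4nb, a neighbour of the Cox4 gene, did not pass.

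Within each population, 4 animals on creosote were set against 4 on juniper. In Great Basin animals 2 of 64 members passed, beside 3.99% of all genes tested (2.07% higher and 1.92% lower): Cox5b was higher by 0.44 ± 0.09 (limma adjusted p = 0.00946) and Ndufa6 was lower, at -1.05 ± 0.14 (2.07-fold, limma adjusted p = 0.000528). In Mojave animals 10 passed under loess, 7 higher and 3 lower, beside 9.56% of all genes (3.83% higher and 5.73% lower). After median centring 16 passed, 2 higher and 14 lower, beside 18% of all genes. Among the 7 were Ndufb7 (0.63 ± 0.11, limma adjusted p = 0.00222), Sdhb (0.59 ± 0.11), Cox8a (0.54 ± 0.14), Atp5o (0.51 ± 0.11), Ndufb5 (0.48 ± 0.13) and Cox5b (0.36 ± 0.09), and the 3 lower were Ndufa6 (-0.72 ± 0.15, limma adjusted p = 0.00737), Cox4i1 (-0.40 ± 0.12) and Atp5s (-0.31 ± 0.08). None of the 7 passed after median centring, where Cox5b was at -0.10 and Ndufb7 at 0.25, whereas Ndufa6, Cox4i1 and Atp5s passed as lower there as well. That scaling lowered bright genes as a whole in Mojave animals (median of all genes above a log2 brightness of 13, -0.45). Cox4i1, Atp5s and Cox5b did not pass with no offset (limma adjusted p = 0.113, 0.0708 and 0.104). Nor did they in the deposited ratios (0.0840, 0.0993 and 0.100) or the Cy5 channel alone (0.175, 0.0956 and 0.0871). Ndufa6 passed in each of these. Several of these Mojave calls were lost on leaving out 1 animal. Cox4i1 was close to the threshold with all animals (limma adjusted p = 0.0469). It lost its call without any 1 of 10 animals, Great Basin animals among them (highest adjusted p = 0.190). Its value stayed between -0.46 and -0.33 whichever animal was left out. Cox4i1 passed without Mojave creosote 3, Mojave juniper 3, Great Basin creosote 2 or 3 or Great Basin juniper 1 or 3. Cox5b and Atp5s did not pass without Mojave creosote 2 or 4 or Mojave juniper 1 (highest adjusted p = 0.073 and 0.111), nor Ndufb5 without Mojave juniper 2 or 4 (0.123 and 0.0505). The difference between the populations was tested as an interaction, and 0 of 64 members passed, as 0% of all genes did (limma; 9 members had an unadjusted p under 0.05). After median centring 8 members and 9.17% of all genes passed, the diet difference of each of the 8 being lower in Mojave than in Great Basin animals. Under loess Ndufb7 had an interaction of 0.52 ± 0.15 (limma adjusted p = 0.154), with diet differences of 0.63 in Mojave and 0.11 in Great Basin animals. The highest interaction was that of Atp5j, at 0.70, and the lowest that of Cox4i1, at -0.43. Atp5j had diet differences of 0.60 in Mojave and -0.10 in Great Basin animals, and of 0.15 and 0.03 after median centring.

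**Figure D3:**
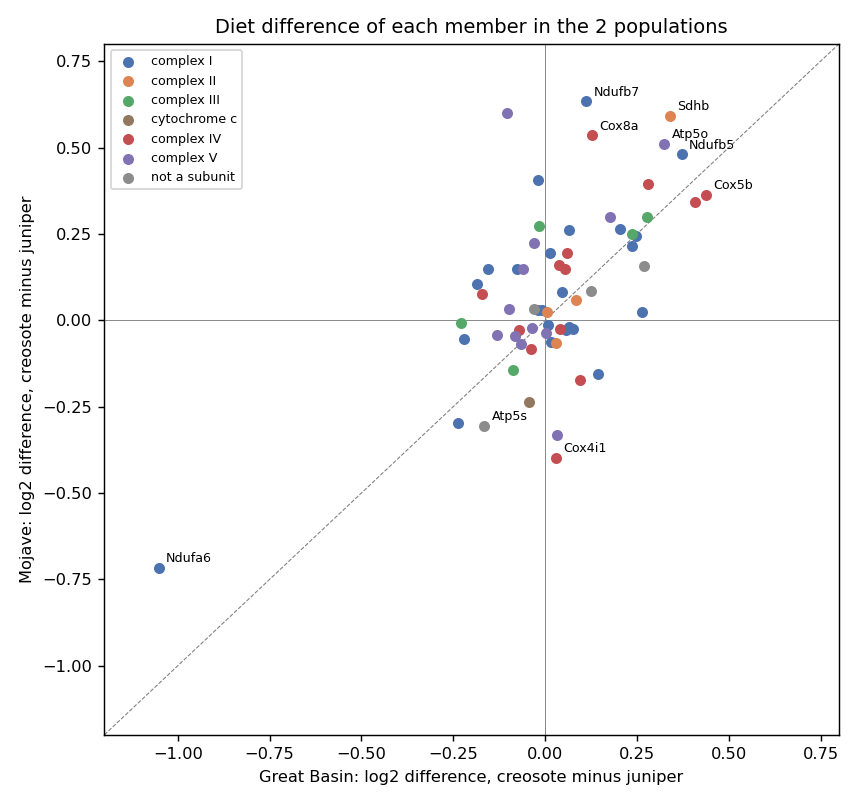
Creosote minus juniper difference of each member reported here in Great Basin (horizontal) and Mojave (vertical) woodrats, log2 scale, coloured by complex; the dashed line marks equal differences, and members described in the text that passed in either population are named. Ndufa6 is low on both axes. Ndufb7 lies at 0.63 on the Mojave axis and at 0.11 on the Great Basin axis, an interaction that did not pass. After median centring 14 of the 16 members past the threshold in Mojave woodrats were lower on creosote, and 18% of all genes passed.

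No member passed between Mojave and Great Basin woodrats on the same plant. On creosote 0 of 64 members passed, beside 0.0793% of all genes, 0.034% higher and 0.0453% lower in Mojave animals (limma; 8 members at an unadjusted p under 0.05), and on juniper 0 of 64, beside 0.0113%, 0.00377% higher and 0.00755% lower (limma; 8 members at an unadjusted p under 0.05). The nearest were Cox4i1 and Ndufa6. Cox4i1 had log2 ratios of -0.43, -0.30, -0.15 and -0.24 in Mojave creosote, 0.39, 0.20, 0.65 and 0.25 in Great Basin creosote, 0.26, 0.17, -0.10 and 0.21 in Mojave juniper and 0.52, 0.27, 0.19 and 0.39 in Great Basin juniper. All 4 Mojave animals on creosote were below every other animal, and the Mojave minus Great Basin difference on creosote was -0.63 ± 0.12 (limma adjusted p = 0.0653). The Mojave minus Great Basin difference of Ndufa6 on creosote was 0.65 ± 0.15 (limma adjusted p = 0.088). Averaged over the diets, 0 of 64 members passed, beside 0.034% of all genes, 0.00377% higher and 0.0302% lower (limma; 8 members at an unadjusted p under 0.05), with Cox4i1 at -0.42 ± 0.08 and Ndufa6 at 0.48 ± 0.10. These results turned on the sex term and the normalization. Without the sex term 2 members passed on creosote and 2 on average, beside 1.07% and 0.192% of all genes. After median centring 17 passed on creosote, all lower in Mojave animals, beside 11.8% of all genes. Leaving out Mojave creosote 3 also gave 2 on creosote and 1 on average, Great Basin creosote 2 gave 1 and 2, and Great Basin creosote 4 gave 1 on creosote. Between the sexes 0 of 64 members passed (limma; 2 at an unadjusted p under 0.05), beside 0.00377% of all genes.

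Each complex can also be seen through its median member in each animal. The median member of complex I averaged 0.05 ± 0.04 in Mojave creosote, -0.04 ± 0.05 in Mojave juniper, 0.09 ± 0.07 in Great Basin creosote and 0.04 ± 0.02 in Great Basin juniper (SD, n = 4 each). For complex III the means were 0.19 ± 0.12 in Mojave creosote, -0.08 ± 0.03 in Mojave juniper, -0.02 ± 0.07 in Great Basin creosote and 0.06 ± 0.12 in Great Basin juniper, so the Mojave groups were apart (0.05 to 0.32, against -0.11 to -0.03) and the Great Basin groups overlapped. Complex IV averaged 0.16 ± 0.10 in Mojave creosote, 0.01 ± 0.11 in Mojave juniper, 0.19 ± 0.16 in Great Basin creosote and 0.09 ± 0.09 in Great Basin juniper, and complexes I, II, IV and V overlapped between the diets in both populations. These medians are given without a test.

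**Figure D4:**
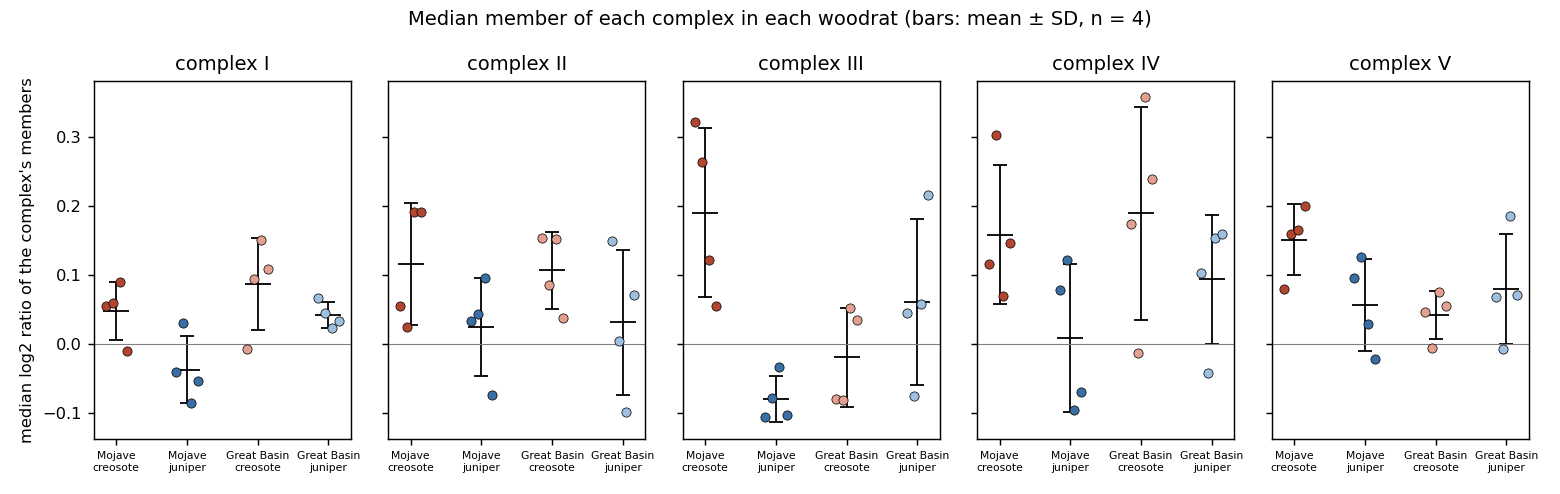
Median log2 ratio over the members of each complex in each of the 16 animals, by group, with the mean and SD of the 4 animals. The groups overlap in most panels, and complex III is the one in which all 4 Mojave creosote animals (0.05 to 0.32) lie above all 4 Mojave juniper animals; under median centring the bright members of Mojave animals shift towards lower values on creosote.

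Fewer members passed among dim probes, as over the whole array. Of members with a mean log2 brightness under 7, 1 of 18 passed for the mean diet difference (5.56%, beside 3.41% of all genes that dim). From 7 to 10 it was 3 of 14 (21.4%, beside 16.9%), from 10 to 13 it was 5 of 14 (35.7%, beside 32.8%), and above 13 it was 6 of 18 (33.3%, beside 37.4%). Within each class the members' share was near that of all genes of like brightness.

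The choice between loess, which removes a trend with brightness from each array, and centring on the median, which keeps it, shifted bright genes as a whole. Above a log2 brightness of 13, the median Mojave creosote minus juniper difference of all 1043 genes was 0.03 under loess and -0.45 after median centring, and that of the 18 members -0.02 and -0.49. From 10 to 13 the median of all genes was -0.06 under loess and -0.51 after median centring, and that of the 14 members 0.20 and -0.26. Set against all genes of like brightness, the members' median was 0.25 higher from 10 to 13 under either normalization, and above 13 it was -0.04 under loess and -0.05 after median centring. In Great Basin animals the shift was smaller and ran the other way, the median of all genes above 13 being -0.05 under loess and 0.09 after median centring. Of the 18 members above 13, 10 had a Mojave difference below 0 under loess and 17 after median centring.

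**Figure D5:**
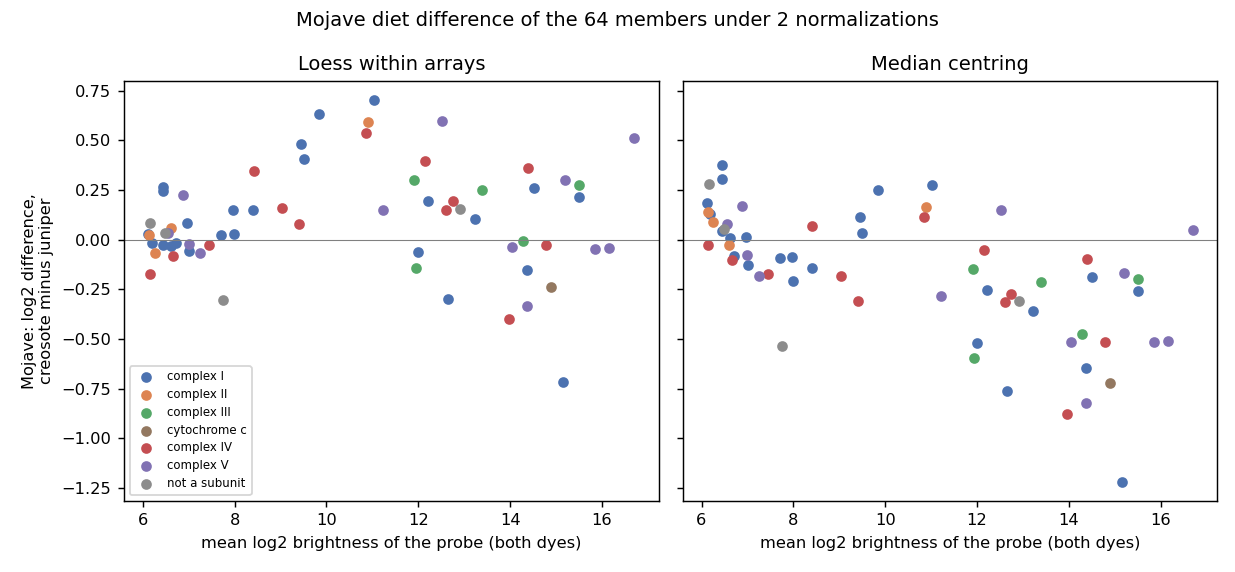
Mojave creosote minus juniper difference of each of the 64 members (vertical, log2) against the mean log2 brightness of its probe (horizontal), after loess within arrays (left) and after median centring (right). Under loess 10 of the 18 brightest lie below 0, and after median centring 17 of these 18 do; the median of all genes that bright, above 13, is then -0.45.

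Other mitochondrial genes were read from lists, for the mean diet difference. Beside them, 12.1% of all genes tested passed (5.73% higher and 6.39% lower), and 14.6% after median centring. None of the 14 listed genes coded in mitochondrial DNA was tested here. Of 11 further nuclear subunits and assembly factors, 0 were higher and 2 lower on creosote, Surf1 of complex IV assembly (-0.54, limma adjusted p = 0.00994) and Lrpprc, which stabilises mitochondrial messages (-0.49, adjusted p = 0.0178), and the list's median was -0.09; after median centring 0 were higher and 4 lower (median -0.18). Lrpprc was at -0.25 with the mean of all its kept probes (adjusted p = 0.0676). Of 12 genes of the tricarboxylic acid cycle and pyruvate oxidation, 3 were higher (Fh1 at 0.47, Suclg2 at 0.40 and Idh3g at 0.24) and 3 lower (among them Dlat at -0.89 and citrate synthase Cs at -0.64). The 3 that were lower also passed after median centring, and the 3 that were higher did not. That scaling lowered bright genes as a whole. Above a log2 brightness of 13 the median of all genes was -0.18 after median centring and -0.01 under loess. Fh1 lost its call on leaving out any 1 of 10 animals (highest adjusted p = 0.119), and it passed without Great Basin creosote 1, 2 or 4, Great Basin juniper 2, Mojave creosote 2 or Mojave juniper 1. Suclg2 did not pass without Great Basin juniper 4 or Mojave juniper 1 or 2 (adjusted p = 0.0573 to 0.0695), and Lrpprc not without Great Basin creosote 4 or Great Basin juniper 4 (0.0538 and 0.0568). Among 19 carriers and import proteins, 1 was higher (Timm8b, 0.31, not past the threshold without Great Basin creosote 4 or Great Basin juniper 3) and 4 lower, the import pore proteins Tomm40 (-0.65) and Timm23 (-0.43), the porin Vdac2 (-0.38) and Timm8a (-0.30). The list's median was -0.07, and after median centring 0 were higher and 8 lower (median -0.23). Of 56 mitochondrial ribosomal proteins 3 were higher and 8 lower, led by Mrpl38 (-0.57) and Mrps10 (-0.53), with a list median of -0.06; after median centring 0 were higher and 12 lower (median -0.13). Dlat, Cs, Tomm40, Surf1, Mrpl38 and Mrps10 passed under all 30 alternatives.

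Among 15 regulators of mitochondrial biogenesis, 1 passed for the mean diet difference, beside 12.1% of all genes. It was the zinc-finger factor Yy1 (0.36, limma adjusted p = 0.000621), which was 0.21 after median centring (adjusted p = 0.124). The coactivator Ppargc1a differed by 0.28 (95% interval -0.03 to 0.60, limma adjusted p = 0.260). Nrf1, a factor that binds promoters of many of these subunits, was lower on creosote in Mojave animals (-0.35 ± 0.09, limma adjusted p = 0.0263), a call that ended on leaving out Mojave creosote 1 or 4 or Mojave juniper 1 or 2 (adjusted p = 0.0559 to 0.0858), and was at 0.07 ± 0.08 in Great Basin animals. Its interaction did not pass (-0.41 ± 0.12, adjusted p = 0.173). The probe of Tfam, which packages mitochondrial DNA, was well above background on 0 arrays, and Esrra was not tested. Of 8 uncoupling and mitochondrial redox genes 1 passed for the mean diet difference, beside 12.1% of all genes. It was the uncoupling protein Ucp1 (0.29, not past the threshold without Great Basin creosote 4 or Mojave juniper 2). Ucp1 also did not pass after median centring (0.26, limma adjusted p = 0.127), in the Cy5 channel alone (0.32, 0.468) or in males alone (0.33, 0.118).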

How the data were processed

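Liver RNA of 16 woodrats was read on 2-colour rat arrays, each animal in Cy5 against a Cy3 pool of all 16 livers, with no dye swap. Per the submitters' processing notes, images were read with Agilent Feature Extraction 9.1.3.1. The scanner files as deposited give mean and background intensities per spot and channel; the deposited processed values, as log2 ratios, differed from the ratio of the software's processed signals by at most 5e-10. How far each probe matches woodrat sequence is not given in the sources used here.

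From the intensities, normexp correction with an offset of 50 and loess within arrays gave log2 ratios (limma 3.58.1, R 4.3.3), with control spots and spots marked as outliers left out. A gene needed 4 arrays well above background and 2 values per group, and its brightest probe was used. One limma model over the 16 arrays held the 4 group means and sex (residual df 11), and p-values were adjusted by Benjamini-Hochberg over 26496 genes, at a threshold of 0.05. With 16 arrays the precision was limited, and the median SE of a member's mean diet difference was 0.0733. The scripts were tested on simulated data. Figures were drawn with matplotlib 3.10.9 in Python 3.11.15.

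Named genes were, by rule, every member past the threshold in any contrast, the largest statistic and the brightest probe of each complex, the isoform pairs of complex IV, 4 regulators, and up to 6 called genes per other list; other members are named for their roles or as the extremes of a range, and were chosen after their values were seen. The members and lists were chosen with earlier results of these data known. Alternatives changed the background correction, normalization, filters, probe summary, slide, sex term, animals and replicate block. A few genes are not reported here by name or value; they remain in the counts and medians.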

Additional observations from a re-analysis of the deposited data

Results flagged for a closer look

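Within groups of 4 animals, 7 of 116 group-by-result sets held a single value far from the other 3 by Dixon's criterion, and chance flags about 1 in 20 groups. The values are log2 ratios to the pool. Ndufb7 was 0.5836 in Mojave creosote animal 3, against 0.4698 to 0.4888 in the others, and Cox6a2 was 0.165 in Mojave creosote animal 2, against 0.1413 to 0.1452. The median of all members was 0.0539 in Mojave creosote animal 4, against 0.0983 to 0.1053. Ndufab1 was 0.0929 in Mojave juniper animal 2, against -0.0907 to -0.068. Ndufa11, with its dim probe, was 0.0292 in Great Basin creosote animal 2, against 0.3157 to 0.3567. Ndufa6 was 0.0953 in Great Basin juniper animal 4, against -0.0735 to -0.0705, and Sdhb was 0.0034 in Great Basin juniper animal 3, against 0.189 to 0.2238.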

How the results depend on the processing

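Over 30 alternatives, 1 of them (outlier spots kept) chosen after seeing the data, the mean diet difference of Ndufa6 and Sdhb kept its direction and its side of the threshold, and the 15 called members kept their sign in each alternative that tested them (29 for Ndufa11). Counts of members past the threshold moved by over 1.5 times as follows, and the cause was not tested. For the mean diet difference (15) there were 8 with no offset, 7 in the deposited log2 ratios, 2 in males alone and 8 without slide 1. The shares of all genes were 9.64%, 10.1%, 4.73% and 7.97% in that order, against 12.1%. In Mojave animals (10) there were 4 in the deposited ratios, 16 after median centring, 5 in the Cy5 channel alone, 4 in males alone and 6 without slide 1. Of all genes 6.17%, 18%, 4.17%, 4.04% and 6.52% passed in that order, against 9.56%. In Great Basin animals (2) there were 5 after median centring, 0 in males alone and 1 without slide 1. Of all genes 4.36%, 0.578% and 1.51% passed in that order, against 3.99%. Median centring gave 17 for the populations on creosote and 8 for the interaction, and no sex term gave 2 on creosote and 2 on average, all against 0. The shares of all genes were 11.8%, 9.17%, 1.07% and 0.192% in that order. The Mojave difference of Cox5b reversed to -0.0991 after median centring (limma adjusted p = 0.693).

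Leaving out 1 animal at a time gave 11 to 19 members for the mean diet difference (lowest without Great Basin juniper 3), 7 to 12 in Mojave animals (lowest without Mojave juniper 1), 2 to 4 in Great Basin animals (4 without Great Basin creosote 2 or Mojave creosote 1), 0 to 2 for the populations on creosote, 0 to 2 on average and 0 for the rest. Replicate numbers did not pair the animals (correlation of deviations -0.167 to 0.136 over 24 pairs); with the slide as a block 14 members passed for the mean diet difference, and with the replicate block 12 (Cox8a lost its call, adjusted p = 0.0512), 9 in Mojave and 2 in Great Basin animals. Signal over background limits dim members: 1 of the 18 under a log2 brightness of 7 passed for diet.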

Other observations

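Among Great Basin animals on creosote, 5 small subunits of different complexes, picked after their values were seen, varied widely, with animals 1 and 3 high and animal 2 lowest. The log2 ratios of animals 1 to 4 were 0.65, 0.14, 0.67 and 0.27 for Ndufc2 of complex I, 1.03, -0.08, 0.89 and 0.39 for Uqcrb of complex III, and 0.76, 0.0005, 1.00 and 0.25 for Cox6c of complex IV. They were 0.70, -0.19, 0.73 and 0.23 for Cox7a2 of complex IV and 0.88, -0.24, 0.82 and 0.35 for Atp5j of complex V. These are values with no test, and none of these 5 passed for diet. Cox7b of complex IV also had animals 1 and 3 high and animal 2 lowest (0.67, 0.01, 0.74 and 0.34). The arrays of animals 1 to 4 had 45.59%, 69.06%, 59.65% and 65.78% of probes well above background. Animals 1 and 3 thus had the lowest shares of the group and animal 2 the highest. The part of array quality in these values was not tested.

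Where a gene had a further probe, its mean diet difference is set beside that of the probe used. Ndufa9 gave -0.05 beside -0.04, Uqcrb 0.17 beside 0.29, Ndufc2 0.13 beside -0.01 and Atp5g2 0.23 beside -0.06. For Cycs the further probes gave -0.0043 and 0.09 beside -0.14, and for Cox8h 0.01 and 0.11 beside -0.05.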
